A study of Mus musculus with 15 samples.

Results

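The GPCR-associated sorting protein family, 9 genes of the X chromosome, was followed through ribosome-bound and total RNA of the dentate gyrus with and without the serotonin receptor 5-HT4R. Its members were taken by symbol: *Gprasp1*, *Gprasp2*, *Bhlhb9* (the third GASP gene) and *Armcx1* to *Armcx6*. All 9 had a row among the 32657 features of every count file. The family was chosen on the cKO against WT changes of *Gprasp1* and *Gprasp2* measured in these same libraries. The values of all members in those contrasts are therefore a description, and where a call is stated there, nothing is read from it. The study compared WT mice with mice lacking functional 5-HT4R in the hippocampus (cKO) by translating ribosome affinity purification (TRAP), in which an antibody to EGFP pulls down polysomes that carry the tagged ribosomal protein EGFP-L10a. WT animals carried Drd3-Cre KI198 and Rosa26-fsTRAP; cKO animals carried the same driver and reporter together with Htr4-Floxed alleles, so Cre and tagged ribosomes were present in both genotypes. Animals were adult. The driver is active in granule cells and in mossy cells, so the immunoprecipitate (IP) mixes these cell types, and the input is RNA of the cleared supernatant from which the IP was made. Libraries came from pooled animals: 3 WT and 2 cKO for each of ventral dentate gyrus (vDG) IP, vDG input and dorsal dentate gyrus (dDG) input, which makes 15 libraries in 6 groups.

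GASP1, the product of *Gprasp1*, binds the cytoplasmic tails of several G protein-coupled receptors after they are internalized and directs them to lysosomes, where they are degraded instead of being returned to the surface. GASP2 is its closest relative. The ARMCX proteins share the armadillo-type repeats of the carboxyl-terminal part, and several of them sit on the mitochondrial outer membrane, where ARMCX3 and ARMCX1 are known to take part in the transport of mitochondria along axons. The family arose by duplication in placental mammals and is strongly expressed in brain.

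The 9 genes lie in 2 clusters on the X chromosome of GRCm38. *Armcx4*, *Armcx1*, *Armcx6*, *Armcx3* and *Armcx2* lie between 134686519 and 134809221, and *Armcx5*, *Gprasp1*, *Bhlhb9* and *Gprasp2* between 135742733 and 135891081. *Gprasp1* (ENSMUSG00000043384) spans 135742733 to 135803474 on the plus strand with 8119 bases of exons, and *Gprasp2* (ENSMUSG00000072966) spans 135839034 to 135844730, also on the plus strand, with 4540. The second cluster is interleaved: *Gprasp1* and *Armcx5* start at the same base and share 456 bases of exons, *Gprasp2* lies inside the span of *Bhlhb9* and shares 376, and *Gprasp1* and *Bhlhb9* share 36. The shared bases are 6.06% of the exons of *Gprasp1*, 8.28% of *Gprasp2*, 8.58% of *Bhlhb9* and 12% of *Armcx5* (here with a microRNA gene included). These overlaps are those of GENCODE M21; the methods name UCSC as source of the reference, and the version of the gene models behind the deposited counts is not given in the sources used here. In the union mode used for counting, reads on bases that an annotation gives to more than 1 gene are left uncounted. The longest coding sequence gave a protein of 1347 residues for *Gprasp1*, 826 for *Gprasp2*, 539 for *Bhlhb9* and 301 to 2356 for the ARMCX genes. The serine-tryptophan-phenylalanine-tryptophan core of the GASP motif, through which GASP proteins contact receptors, occurred 7 times in *Gprasp1*, 2 times in *Gprasp2*, 2 times in *Armcx5*, once in *Bhlhb9* and not at all in the other ARMCX proteins. Over the last 250 residues, *Gprasp1* and *Gprasp2* were identical at 61.3% of aligned positions, more than any other pair, followed by *Armcx1* with *Armcx3* at 55.4% and *Armcx1* with *Armcx2* at 53.2%. *Bhlhb9* was 34.8% identical to *Gprasp1* and 31.2% to *Gprasp2* there.

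Promoter windows of RefSeq on GRCm38.p6, from 250 bases before to 50 after the start, were matched for 8 of the 9 members. Those of *Gprasp1* and *Armcx5* were the same 300 bases. Those of *Gprasp2* and *Bhlhb9* were near copies of each other, with 266 of 281 aligned bases identical (94.7%), and they shared 2 runs of 60 bases, 1 base apart, the first of which occurred under no other symbol among 32851 windows. These 3 windows are shown because *Gprasp1* and *Gprasp2*, on which the family was chosen, have unlike windows, while the window of *Bhlhb9* resembles that of *Gprasp2*. RefSeq places this start of *Bhlhb9* inside the gene's GENCODE span, which begins at 135797594, so the 2 annotations start this gene at different places. Capitals mark TGACG, on either strand, in *Gprasp1* and the first of the shared runs in *Gprasp2* and *Bhlhb9*.
Gprasp1, chrX:135742442-135742741, plus strand: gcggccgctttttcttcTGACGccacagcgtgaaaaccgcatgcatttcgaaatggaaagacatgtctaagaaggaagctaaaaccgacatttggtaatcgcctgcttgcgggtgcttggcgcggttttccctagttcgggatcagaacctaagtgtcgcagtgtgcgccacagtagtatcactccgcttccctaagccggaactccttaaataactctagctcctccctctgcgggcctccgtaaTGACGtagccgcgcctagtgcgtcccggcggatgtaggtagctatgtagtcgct
Gprasp2, chrX:135838784-135839083, plus strand: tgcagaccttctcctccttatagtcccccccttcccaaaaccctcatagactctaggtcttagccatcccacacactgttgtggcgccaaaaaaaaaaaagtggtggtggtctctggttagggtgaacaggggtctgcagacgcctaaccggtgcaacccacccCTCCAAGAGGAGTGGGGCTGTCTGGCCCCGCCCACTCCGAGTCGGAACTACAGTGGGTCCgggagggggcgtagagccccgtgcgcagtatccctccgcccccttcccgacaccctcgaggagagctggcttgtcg
Bhlhb9, chrX:135885601-135885900, plus strand: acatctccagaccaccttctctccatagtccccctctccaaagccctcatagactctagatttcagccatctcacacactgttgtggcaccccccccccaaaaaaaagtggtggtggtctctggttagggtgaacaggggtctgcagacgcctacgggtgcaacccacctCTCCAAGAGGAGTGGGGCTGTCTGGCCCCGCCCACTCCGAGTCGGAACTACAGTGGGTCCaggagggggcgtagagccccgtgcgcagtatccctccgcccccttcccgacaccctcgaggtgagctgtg

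Letters of some factor-binding motifs were searched on both strands, as a description of these windows. TGACG, part of the cAMP response element, occurred 2 times in the window of *Gprasp1* and *Armcx5*, 2 times in *Armcx4* and once each in *Armcx1* and *Armcx6*, against 20.8% of all windows with at least 1 copy. The full element TGACGTCA, which contains TGACG and is present in 1.79% of windows, was in none of the 8. GGGCGG occurred 2 times each in *Gprasp2* and *Bhlhb9*, and once in *Armcx4* (35.7% of all windows). CACGTG occurred once each in *Armcx4*, *Armcx1* and *Armcx6* (7.15%). TATAAA (13.6%) and TCGCGA (2.5%) were in none. *Gprasp1* and *Gprasp2* shared none of these letters.

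The libraries held 19039295 to 30451430 counts on genes, and every member had counts in every library. The gene count of *Htr4* was 13.6 to 18.5 CPM (counts scaled by library size) in WT vDG libraries and 26.9 to 30.2 in cKO vDG libraries, and 25.0 to 33.9 against 47.2 to 51.8 in dDG input. It was thus higher in every library labelled cKO. The floxed segment is 1 exon, and a count over the whole gene does not resolve it, so this value does not check the genotype labels. In the libraries labelled cKO vDG IP replicate 1 and cKO vDG input replicate 1, the Y-linked genes *Ddx3y*, *Eif2s3y*, *Uty* and *Kdm5d* all had a count of 0, while their summed level was 46.2 to 78.7 CPM in the other 13 libraries. The study describes pools of both sexes. As the family is X-linked, members' values are also given without these libraries. Markers matched the labelled tissue: granule cell markers such as *Prox1* and *Calb1* summed to 1658 to 3370 CPM over all groups, and in the WT vDG the IP was depleted of 6 of 6 astrocyte, 6 of 6 microglia and 7 of 8 interneuron markers, but of 0 of 5 endothelial and 2 of 6 immature neuron or progenitor markers, by edgeR's quasi-likelihood test at a false discovery rate (FDR) of 0.05 (16.1% of 15011 tested genes were lower in the IP).

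*Gprasp1* was by far the most abundant family member. Per kilobase of exons its level was 82.3 ± 8.35 CPM (SD, n = 3) in WT vDG IP, 45.6 ± 3.65 in WT vDG input and 30.5 ± 1.98 in WT dDG input. It supplied 64.7% to 68.2% of all family counts in WT vDG IP and 52.2% to 56.4% in WT inputs. In WT vDG IP *Bhlhb9* (17.5 ± 1.22 CPM per kilobase), *Armcx1* (17.4 ± 4.25) and *Gprasp2* (16.1 ± 3.10) came next and did not differ beyond their spread. *Armcx2* (9.92 ± 0.848), *Armcx4* (6.76 ± 0.505) and *Armcx3* (5.92 ± 0.306) formed the middle of the order. *Armcx5* (0.657 ± 0.0596) and *Armcx6* (0.362 ± 0.0805) were near the limit of detection, with 66 to 78 and 17 to 26 reads per library. *Gprasp1* ranked first and *Armcx5* and *Armcx6* last in all 6 groups, with DESeq2 size factors as with TMM scaling. The place of *Gprasp2* moved: it had rank 4 in WT vDG IP and WT vDG input and rank 5 in the other 4 groups. Its libraries overlapped those of *Bhlhb9* and *Armcx1* in WT vDG IP, those of *Armcx2* in cKO vDG IP and WT dDG input and those of *Armcx2*, *Armcx3* and *Armcx4* in cKO dDG input, and overlapped no neighbour in the vDG inputs.

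**Figure D1:**
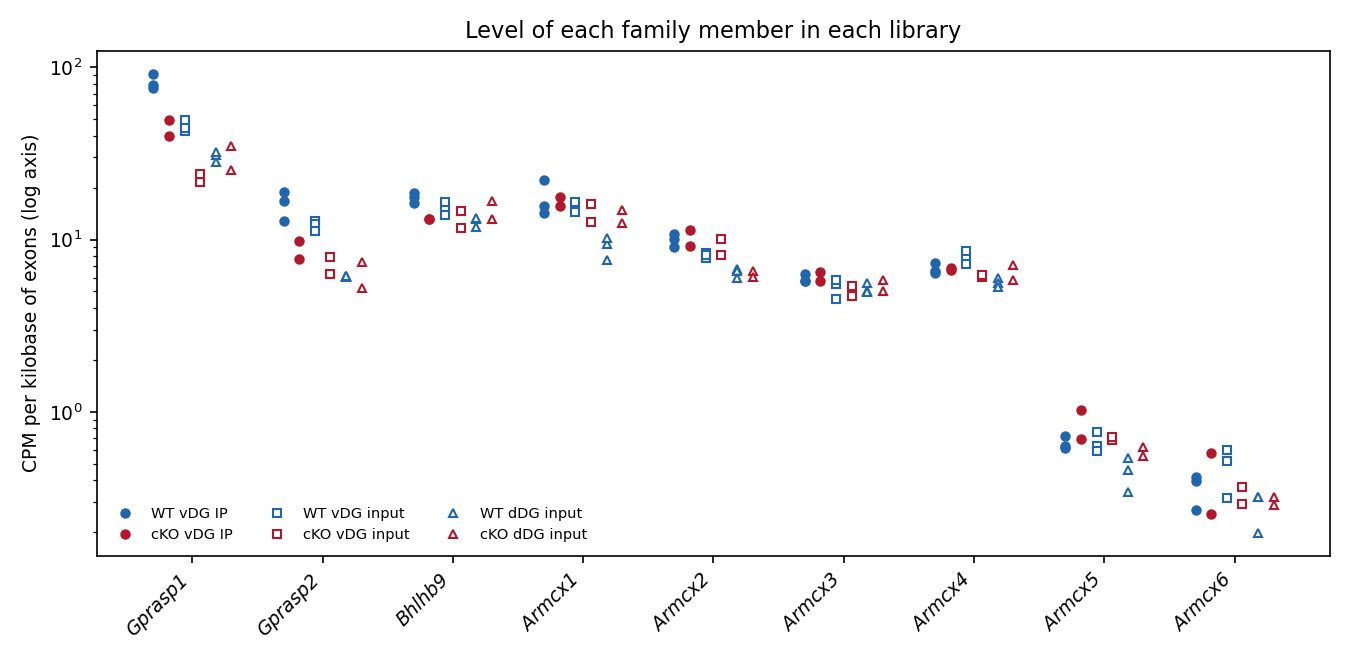
Level of the 9 family members in CPM per kilobase of exons (log axis), 1 point per library, with WT in blue, cKO in red, IP as filled circles, vDG input as open squares and dDG input as open triangles. *Gprasp1* lies above every other member in all 15 libraries, and *Armcx5* and *Armcx6* lie lowest.

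In the vDG IP, both GASP genes were lower in cKO than in WT. *Gprasp1* measured 617, 641 and 745 CPM in the 3 WT libraries and 322 and 399.5 CPM in the 2 cKO libraries, so the groups did not overlap, and the highest cKO library lay far below the lowest WT library. The log2 fold change was −0.88 ± 0.14 (SE), or 0.544 of the WT level. *Gprasp2* measured 76.0, 57.9 and 85.6 CPM in WT and 34.9 and 44.8 CPM in cKO, again without overlap. Its log2 fold change was −0.86 ± 0.18 (SE), close to that of *Gprasp1*, although the gene is expressed at a much lower level. Both stood among the 50 genes that edgeR's quasi-likelihood test put lower in cKO at the FDR of 0.1 that the study used for the IP, 0.350% of 14300 tested. As the family was chosen on this contrast, nothing is read from their place there. In bulk RNA, fewer cells of a type and less RNA per cell cannot be told apart.

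The difference was also present in the vDG input, which holds RNA of all cells of the dissected tissue. *Gprasp1* measured 347, 403 and 360 CPM in WT and 175 and 196 CPM in cKO, which gives −1.001 ± 0.13 (SE) on the log2 scale, or 0.4998 of the WT level. *Gprasp2* measured 58.4, 55.5 and 51.2 CPM in WT against 28.6 and 35.8 CPM in the cKO libraries, which gives −0.78 ± 0.15 (SE), or 0.583 of the WT level. Neither gene overlapped between the genotypes. Both were again among the genes edgeR called lower, here 368 of 15786 at FDR 0.05 (2.33%), and this contrast too led to the choice of the family. Between IP and input the cKO change of *Gprasp1* differed by 0.14 ± 0.18 (SE) on the log2 scale, and that of *Gprasp2* by −0.07 ± 0.24, each smaller than its error. Without the cKO IP library that lacked Y-linked counts these differences were 0.29 ± 0.20 and 0.10 ± 0.26, without the input library of that kind as well 0.20 ± 0.23 and −0.061 ± 0.29, and with each library left out in turn they ranged from −0.028 to 0.29 and from −0.27 to 0.11.

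In the dDG input the cKO libraries of both GASP genes lay on either side of the WT libraries. *Gprasp1* measured 229.5, 252 and 261 CPM in WT and 204 and 284 CPM in cKO, with a log2 fold change of −0.02 ± 0.13 (SE). *Gprasp2* measured 28.0, 27.4 and 27.9 CPM in WT and 23.9 and 33.7 CPM in cKO, with a log2 fold change of 0.05 ± 0.15. The sign of both rested on 1 library: without cKO dDG input replicate 2 *Gprasp1* had −0.27 and *Gprasp2* −0.22, and without cKO dDG input replicate 1 they had 0.19 and 0.27. The cKO change in vDG input minus that in dDG input was −0.99 ± 0.19 (SE) for *Gprasp1* and −0.84 ± 0.21 for *Gprasp2*. These differences are a description, since the family was selected on one of the contrasts they contain.

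**Figure D2:**
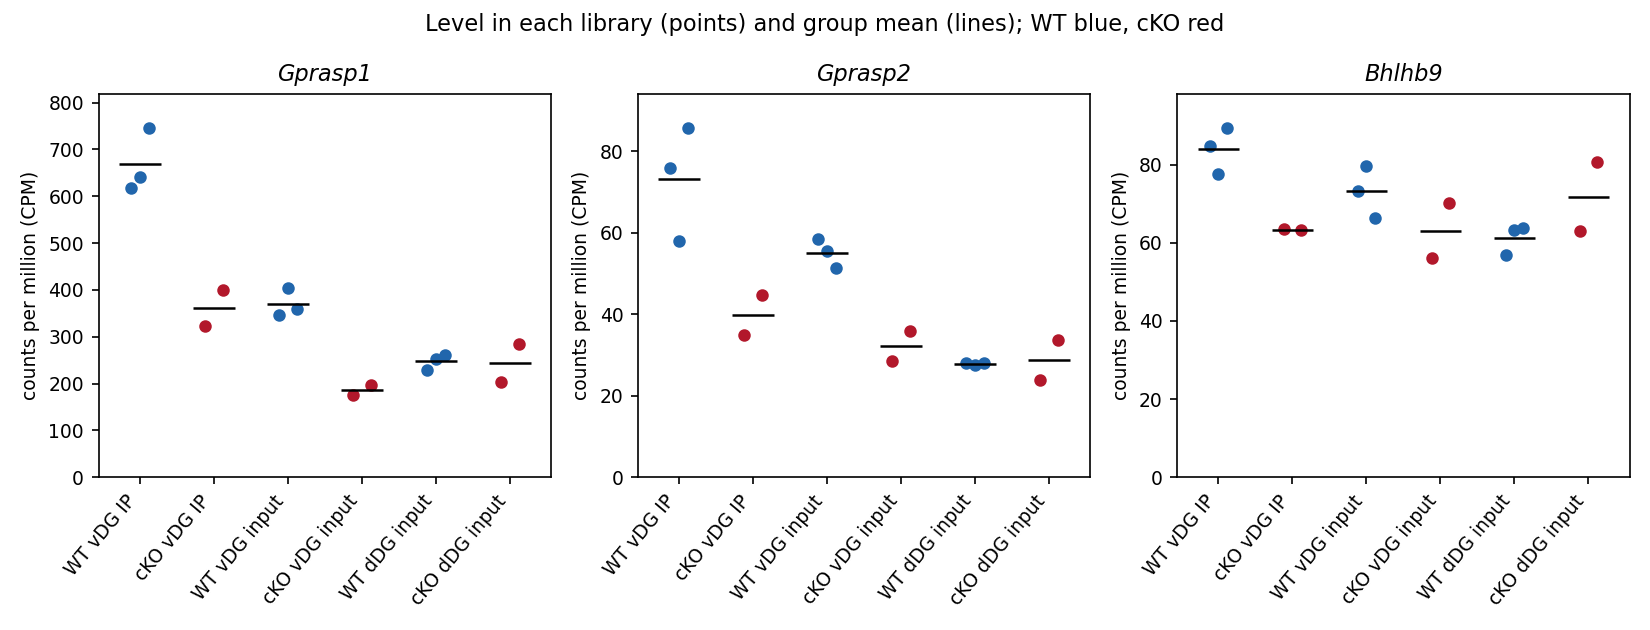
Level of *Gprasp1*, *Gprasp2* and *Bhlhb9* in CPM (vertical axes, linear from 0) in each library of the 6 groups, with points for libraries (WT blue, cKO red) and lines for group means. *Gprasp1* and *Gprasp2* are lower in cKO in vDG IP and vDG input and lie around the WT values in dDG input.

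Without the cKO library that lacked Y-linked counts, *Gprasp1* remained lower by −0.74 ± 0.20 (SE) on the log2 scale in the IP and −0.91 ± 0.18 in the vDG input, and *Gprasp2* by −0.70 ± 0.24 and −0.62 ± 0.20. With 1 cKO library left, whose spread is assumed to equal that of the WT libraries, edgeR called neither gene, and it called 0 genes of 14931 in the IP and 6 of 16359 in the vDG input. *Bhlhb9* had −0.41 ± 0.21 in the IP and −0.056 ± 0.19 in the vDG input, against −0.22 there with both libraries, and *Armcx4* had −0.35 ± 0.19 in the vDG input. The other 5 ARMCX genes lay between −0.49 and 0.65 in the IP and between −0.37 and 0.12 in the vDG input. With all libraries, 5.38% of the 502 tested X-linked genes in vDG input were called, 26 lower and 1 higher, against 2.52% of autosomal genes, and the median log2 fold change was −0.08 against 0.01. In the IP 1.70% of 470 X-linked genes were called, 7 lower and 1 higher, against 0.393% of autosomal genes. In dDG input 0 X-linked genes were called, against 0.0302% of autosomal genes. *Gprasp1* and *Gprasp2* are among those called lower in both vDG contrasts.

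Markers of other cells moved beside the GASP genes. In vDG input, 3 of 6 astrocyte markers (*Aqp4*, *Gja1* and *Slc1a3*) were lower in cKO at FDR 0.05, beside the 2.33% of all genes given above, and the summed level of the list was 756 to 909 CPM in WT and 652 to 657 in cKO. Interneuron markers summed to 451 to 524 CPM in WT and 384 to 393 in cKO, and in the IP to 167 to 193 and 117 to 132. Of the interneuron list, 0 of 8 tested were called in vDG input (4 at an unadjusted p under 0.05, DESeq2 0), and 1 of 6, *Gad2*, was lower in the IP, beside 0.350% of all genes there. Granule cell markers summed to 1658 to 2011 CPM in WT vDG input and 1926 to 2067 in cKO, and mossy cell markers to 184 to 218 and 176 to 210, so these sums overlapped between genotypes. In the IP granule cell markers summed to 2346 to 2573 CPM in WT and 2621 to 2797 in cKO without overlap (median log2 fold change 0.17), and mossy cell markers to 193 to 243 and 194 to 202, with 5 of 5 tested below 0 and a median of −0.53. This median was the value of *Drd2*, with 35 to 115 counts per library. *Cda*, *Csf2rb2* and *Glipr1* of the mossy cell list had at most 39, 63 and 9 counts. Neither list had a gene called in the IP by edgeR or DESeq2, or at an unadjusted p under 0.05. Of the granule cell list, 1 of 6, *Dsp*, was lower in cKO vDG input (−0.94 ± 0.21 (SE), adjusted p = 0.0156, edgeR; DESeq2 called 0). Microglia markers summed to 22.9 to 36.9 CPM in WT vDG input and 14.9 to 21.5 in cKO without overlap, with a median log2 fold change of −0.62. edgeR called 0 of these 6 (2 at an unadjusted p under 0.05), and DESeq2 called *P2ry12*. Of the 6 oligodendrocyte lineage markers, 4 lay below the WT range there, edgeR called 0 (2 at an unadjusted p under 0.05) and DESeq2 called *Pdgfra*. Astrocyte markers in the IP summed to 112 to 157 CPM in WT and 89.6 to 108 in cKO, with a median log2 fold change of −0.57. edgeR called 0 of these 6 (3 at an unadjusted p under 0.05), and DESeq2 called *Slc1a3*. No marker of these 6 lists was at 0 in any library. Of 4 choroid plexus markers tested in vDG input, *Ttr* was higher in cKO (1.11 ± 0.29 (SE), adjusted p = 0.0372, edgeR; also called by DESeq2), and the sums of the list overlapped. *Folr1*, *Kcne2*, *Clic6* and *Otx2* of this list had a count of 0 in 3 to 10 of the libraries. In dDG input choroid plexus markers summed to 32.0 to 151 CPM in WT and 18.1 to 23.1 in cKO, with a median log2 fold change of −3.34. There edgeR and DESeq2 called 0 of 4, with 4 at an unadjusted p under 0.05. Of the astrocyte list in dDG input edgeR called 0 (2 at an unadjusted p under 0.05) and DESeq2 called *Gja1* and *Slc1a3* lower. With either cKO library left out, edgeR no longer called *Aqp4*, *Gja1*, *Slc1a3* or *Dsp* in vDG input or *Gad2* in the IP. Without the one that lacked Y-linked counts the log2 fold changes were −0.76, −0.60, −0.86, −0.71 and −0.89. WT libraries mattered too: *Aqp4* was lost without WT vDG input replicate 2 or replicate 3. *Gja1* was lost without WT vDG input replicate 3, *Dsp* without WT vDG input replicate 2 and *Gad2* without WT vDG IP replicate 2. *Ttr* was lost without WT vDG input replicate 2 (0.97) or cKO vDG input replicate 2 (0.32 ± 0.32). Its log2 fold change was 1.61 without cKO vDG input replicate 1, so its size rested on single libraries. Over all genes, 11.7% in the IP, 14.8% in vDG input and 12.2% in dDG input had an unadjusted p under 0.05 between genotypes. The part of these markers in the differences of the GASP genes was not tested.

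*Bhlhb9*, whose promoter window is a near copy of that of *Gprasp2*, had the sign of the GASP genes in the vDG with a smaller size. In the vDG IP it measured 84.9, 77.7 and 89.3 CPM in WT and 63.6 and 63.2 CPM in the cKO libraries, or −0.39 ± 0.14 (SE) on the log2 scale with no overlap between the groups. In vDG input the libraries overlapped (73.4, 79.7 and 66.4 CPM against 56.1 and 70.1) and the log2 fold change was −0.22 ± 0.14. In dDG input it was 0.22 ± 0.13. *Bhlhb9* was not called in any of the 3 contrasts.

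No ARMCX gene was below the WT range in both vDG contrasts. *Armcx1*, a mitochondrial outer membrane protein, measured 50.6, 46.2 and 71.8 CPM in WT vDG IP and 50.4 and 56.7 in cKO, with log2 fold changes of −0.06 ± 0.18 (SE) in the IP and −0.13 ± 0.14 in vDG input. In dDG input it was higher in cKO, with 40.2 and 47.9 CPM against 24.5, 30.5 and 32.8 in WT, and a log2 fold change of 0.58 ± 0.14. The groups did not overlap there, nor did those of *Armcx5*, as for 14.2% of all tested genes in that direction. *Armcx4*, which encodes the longest protein of the family, measured 63.5, 68.5 and 58.0 CPM in WT vDG input and 48.3 and 49.7 in cKO, without overlap, for a log2 fold change of −0.38 ± 0.13, while its IP values overlapped with a log2 fold change of 0.01 ± 0.14. *Armcx2* and *Armcx3* kept log2 fold changes between −0.08 and 0.17 in all 3 contrasts. *Armcx5* and *Armcx6* had standard errors of 0.28 to 0.56 on the log2 scale, and no difference short of a large one was detectable at their depth.

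Over the 9 members, 2 were called lower and 7 not called in each vDG contrast, and the median log2 fold change was 0.01 in the IP and −0.22 in vDG input, beside a median of 0.01 over all genes tested in vDG input. The 2 called are *Gprasp1* and *Gprasp2*, on which the family was chosen, so nothing is read from this count. Of the other 7 members, 1 lay wholly below the WT range in the IP (*Bhlhb9*; 16.8% of all tested genes) and 1 in vDG input (*Armcx4*; 17.6%). In dDG input edgeR called no member at FDR 0.05 (5 of 15383 genes, 0.0325%), 1 member had an unadjusted p under 0.05 and DESeq2 called 1, *Armcx1*.

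**Figure D3:**
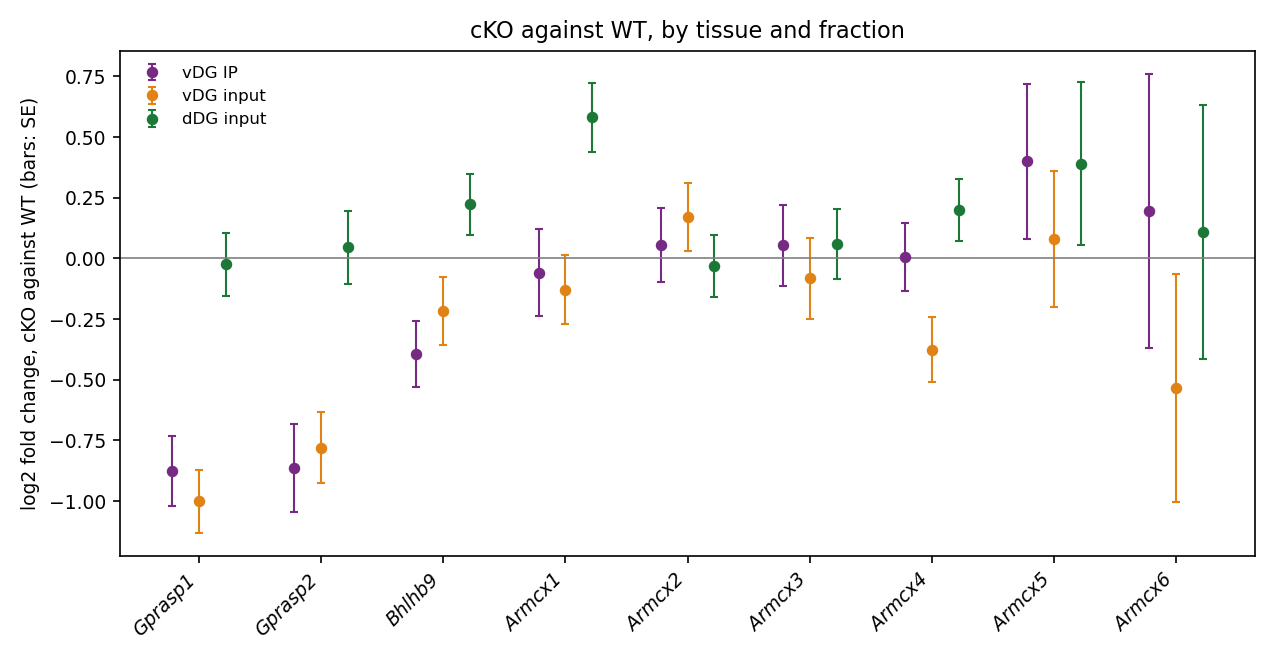
Log2 fold change of cKO against WT (vertical axis) for the 9 members in the IP and input of vDG and in the input of dDG, with bars for the standard error. *Gprasp1* and *Gprasp2* lie between −0.78 and −1.001 in both vDG contrasts and near 0 in dDG input, while *Armcx1* lies at 0.58 in dDG input. Purple is vDG IP, orange vDG input and green dDG input.

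vDG input was compared with dDG input within each genotype. The vDG input libraries are one arm here and also belong to the contrast on which *Gprasp1* and *Gprasp2* led to the choice of the family, which favours high WT and low cKO values in vDG, so the regional values of these 2 genes are a description with no test. In WT their log2 fold changes were 1.01 ± 0.12 (SE) for *Gprasp2* and 0.60 ± 0.11 for *Gprasp1*. Of the other 7 members, 2 were higher in vDG, beside 9.26% of 15412 genes: *Armcx1* by 0.80 ± 0.13 on the log2 scale (adjusted p = 0.000446, edgeR) and *Armcx4* by 0.52 ± 0.12 (adjusted p = 0.00569). No member was lower in vDG (6.09% of genes). The log2 fold change was above 0 for all 9, *Gprasp1* and *Gprasp2* among them. Its median was −0.008 over all genes tested and 0.07 over the X-linked ones. In 5 of the same 7 members every vDG library lay above every dDG library, as in *Gprasp1* and *Gprasp2*, against 15.7% of all genes. The other 5 members did not pass: *Armcx2* had 0.36 ± 0.12 (adjusted p = 0.0590) but passed with DESeq2 (adjusted p = 0.0406), library size alone (0.0494) or the replicate block (0.0400), and *Bhlhb9* 0.28 ± 0.12 (adjusted p = 0.128), while *Armcx3* had 0.05 ± 0.14. The dDG and vDG tissue also differed in cell markers: mossy cell markers summed to 184 to 218 CPM in WT vDG input and 44.9 to 57.0 in dDG, CA pyramidal markers to 467 to 544 and 217 to 337, and granule cell markers to 1658 to 2011 and 2843 to 3370. Their part in the regional difference of the family was not tested.

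In cKO the same comparison called 1 member, *Armcx2*, at 0.55 ± 0.14 (SE) on the log2 scale (adjusted p = 0.00753, edgeR), beside 8.56% of 15505 genes called higher. *Gprasp1* was on the other side of 0, with 175 and 196 CPM in vDG and 204 and 284 in dDG, and a log2 fold change of −0.39 ± 0.13. This value rested on single libraries: it was −0.49 ± 0.15 without cKO vDG input replicate 2 and −0.62 ± 0.15 without cKO dDG input replicate 1. It was −0.32 ± 0.15 without cKO vDG input replicate 1, which lacked Y-linked counts, and −0.13 ± 0.15 without cKO dDG input replicate 2. Its vDG libraries lay below its dDG libraries, as for 29.4% of genes with 2 libraries against 2. *Gprasp2* had 0.17 ± 0.16. *Armcx1* had 0.08 ± 0.14 (adjusted p = 0.753) and *Armcx4* −0.07 ± 0.13 (adjusted p = 0.752). A call with 3 libraries against 3 in WT and none with 2 against 2 in cKO is no test of a difference between genotypes. The difference of the regional changes, cKO minus WT, was −0.99 ± 0.19 for *Gprasp1*, −0.84 ± 0.21 for *Gprasp2*, −0.72 ± 0.21 for *Armcx1*, −0.59 ± 0.18 for *Armcx4* and 0.19 ± 0.18 for *Armcx2*. These are the same quantities as the genotype differences between regions and are given without a test. Of the 9 members, 8 had a negative difference, *Gprasp1* and *Gprasp2*, on which the family was chosen, among them. The median difference was −0.008 over all genes tested and −0.11 over the X-linked ones. The share of all genes below 0 was not computed, so nothing is read from this count. With library size alone the calls over all genes went from 1328 higher and 1314 lower to 1778 and 943, with the sign of each of these members unchanged. The call of *Armcx2* was lost without the cKO vDG input library that lacked Y-linked counts (0.38 ± 0.17, adjusted p = 0.130) and without cKO dDG input replicate 2 (0.50 ± 0.17, adjusted p = 0.0512).

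The IP against the input of the same tissue joins the share of a transcript that comes from tagged cells with its loading on ribosomes there, which cannot be told apart. Both arms entered the choice of *Gprasp1* and *Gprasp2*, so their values are a description with no test. The IP level of *Gprasp1* was 1.74 times the input level in WT (log2 fold change 0.80 ± 0.12 (SE)) and 1.88 times in cKO (0.91 ± 0.12). Every IP library lay above every input library of its genotype, as for 20.2% of all genes in WT and 33.9% in cKO. Enrichment at FDR 0.05 with a minimum fold was met by 7.72% of 15011 genes in WT and 11.4% of 15126 in cKO. With library size alone in place of TMM scaling the calls in WT went from 1160 higher and 2422 lower to 487 and 3022, and *Gprasp1* stayed higher in the IP. *Gprasp2* had 0.35 ± 0.15 in WT and 0.26 ± 0.16 in cKO, with 0.51 ± 0.14 without WT vDG IP replicate 2 and 0.47 ± 0.17 without cKO vDG IP replicate 1. These were the highest values with 1 library left out. The lowest were 0.25 without WT vDG IP replicate 3 and 0.069 without cKO vDG IP replicate 2. *Bhlhb9*, at 0.14 ± 0.12 in WT and −0.05 ± 0.13 in cKO, and the ARMCX genes, at −0.45 to 0.24 in WT and 0.08 to 0.27 in cKO, did not pass edgeR's test.

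**Figure D4:**
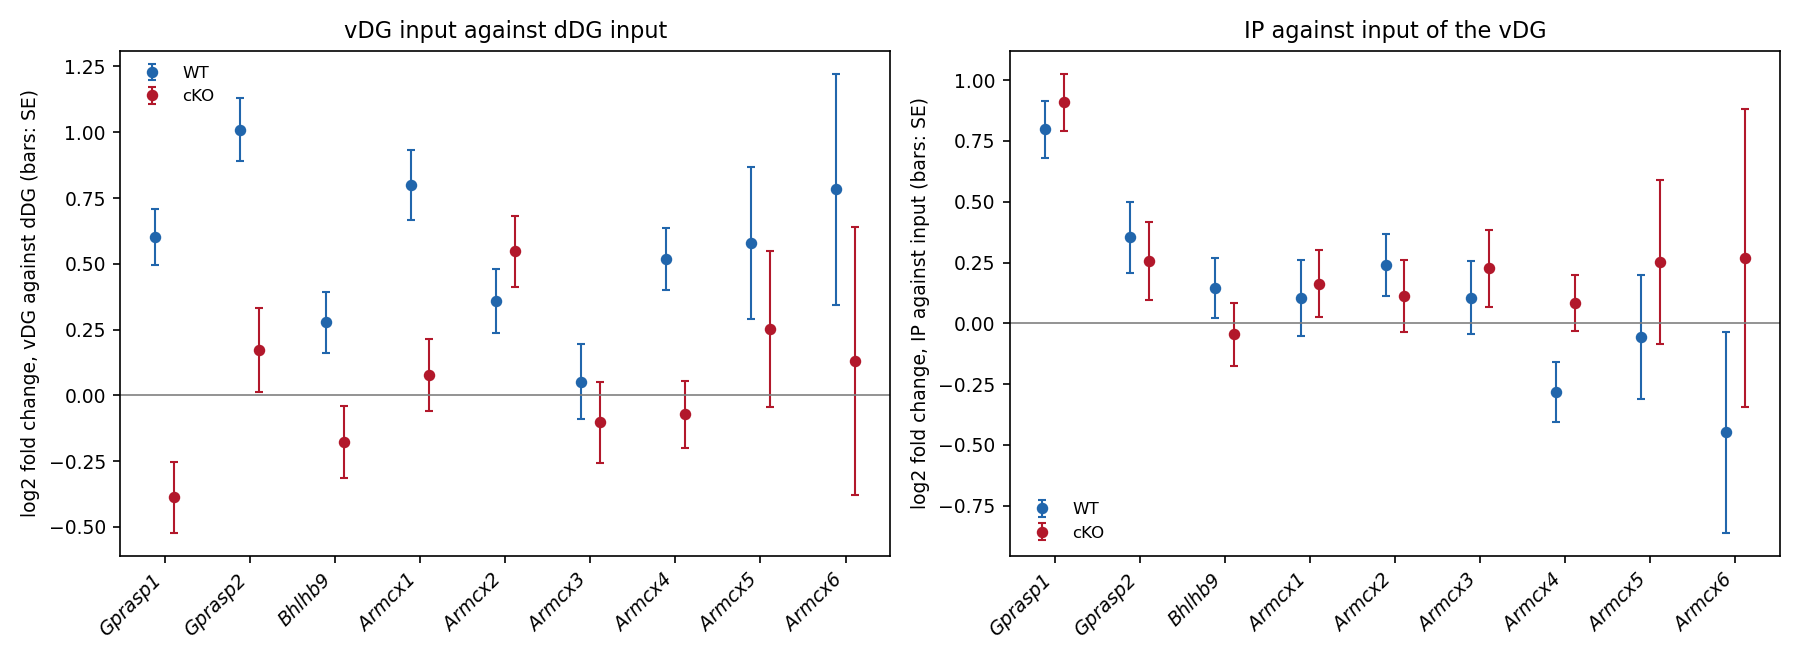
Log2 fold change of vDG input against dDG input (left) and of IP against input in the vDG (right) for the 9 members in WT (blue) and cKO (red), with bars for the standard error. The regional difference of *Gprasp1*, *Gprasp2*, *Armcx1* and *Armcx4* is above 0 in WT and lower in cKO, whereas *Gprasp1* is higher in the IP than in the input in both genotypes.

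The genes most like *Gprasp1* over the 15 libraries, by Pearson correlation of log2 CPM among 10373 genes with a mean of at least 5 CPM, were *Gmps* (0.98), *Ap2b1* (0.98), *Prepl* (0.98), *Mapk8ip3* (0.98) and *Magee1* (0.97). Those most like *Gprasp2* were *Hsp90aa1* (0.96), *Pja1* (0.96), *Rangap1* (0.95), *Anxa7* (0.95) and *Rab3gap2* (0.95). *Magee1* and *Pja1* are X-linked and the other 8 genes are not. *Gprasp2* ranked 234 for *Gprasp1* (0.90), and *Gprasp1* ranked 71 for *Gprasp2*. *Bhlhb9* was less alike, at 0.77 with *Gprasp1* and 0.80 with *Gprasp2*. Libraries share tissue, fraction and genotype, so these values describe the pattern over 6 groups and not 15 independent points.

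Genes of the pathway in which GASP1 acts were counted in the same fits, from lists chosen with earlier results of these data known. Of 18 genes of receptor desensitization and endocytosis, 2 fell in cKO vDG input and 0 rose, with a median log2 fold change of 0.03. These were *Cltc*, the clathrin heavy chain (−0.75 ± 0.13 (SE), adjusted p = 0.00379, edgeR), and *Ap2b1*, a subunit of the AP-2 adaptor that links receptors to clathrin (−0.59 ± 0.13, adjusted p = 0.0128). In the IP *Cltc* was the 1 gene called (−0.90 ± 0.15, adjusted p = 0.0654). The arrestins and receptor kinases on the list were not called in either. Of 22 genes of sorting from endosomes to lysosomes, 1 fell in vDG input, the lysosomal membrane protein gene *Lamp2* (−0.53 ± 0.14, adjusted p = 0.0357), and of 15 genes of recycling to the surface 1 fell, *Nsf*, the ATPase that takes SNARE complexes apart (−0.49 ± 0.13, adjusted p = 0.0441). No gene of these 3 lists rose in either vDG contrast (8 were at an unadjusted p under 0.05 in each), where 0.0699% of genes rose in the IP and 0.108% in the input, and DESeq2 called none higher. Beside these falls, 0.350% of all genes fell in the IP and 2.33% in the input. DESeq2 also called *Ap2b1* lower in the IP and *Dnm1* and *Lamp1* lower in vDG input. These calls rested on few libraries: without cKO vDG input replicate 1, which lacked Y-linked counts, none of *Cltc*, *Ap2b1*, *Lamp2* and *Nsf* passed in vDG input, and the IP call of *Cltc* was lost without WT vDG IP replicate 2 or either cKO library. *Ap2b1*, *Lamp2* and *Nsf* were also lost without cKO vDG input replicate 2, *Lamp2* and *Nsf* without WT vDG input replicate 3, and *Nsf* without WT vDG input replicate 2. Without cKO vDG input replicate 1 the log2 fold changes were −0.62 for *Cltc*, −0.54 for *Ap2b1*, −0.62 for *Lamp2* and −0.35 for *Nsf*. The log2 fold change without 1 library ranged from −0.89 to −0.62 for *Cltc* in vDG input and from −1.10 to −0.73 in the IP. In dDG input no gene of the 3 lists was called by either tool, with 10 at an unadjusted p under 0.05.

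Of the receptors known to bind GASP1, the cannabinoid receptor gene *Cnr1* fell in vDG input (199 CPM in WT and 142 in cKO as group means; log2 fold change −0.49 ± 0.13 (SE), adjusted p = 0.0380, edgeR), and its IP value was −0.59 ± 0.14 (adjusted p = 0.123, edgeR; called by DESeq2). The vDG input call was lost without WT vDG input replicate 3 or either cKO library, with log2 fold changes of −0.56 to −0.44 over the libraries left out. *Cnr1* was depleted from the IP in WT (−0.95 ± 0.12, adjusted p = 6.24e-05), opposite to *Gprasp1*, and was higher in vDG than in dDG input (1.34 ± 0.14, adjusted p = 3.63e-06). The opioid receptor gene *Oprd1* was lower in vDG than in dDG input of WT (−1.47 ± 0.18, adjusted p = 2.86e-05), at 4.87 against 13.7 CPM. *Drd2* was near the limit of detection, at 1.68 to 3.25 CPM over the group means.

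Of the endocytosis list, 6 of 18 genes were higher in vDG than in dDG input of WT and 0 lower, beside the 9.26% of all genes given above, with *Adrbk2*, a receptor kinase, at 0.71 ± 0.12 (SE, adjusted p = 0.000415, edgeR), *Dnm3* at 0.55 ± 0.11 (adjusted p = 0.00163), *Dnm1*, which pinches vesicles from the membrane, at 0.54 ± 0.10 (adjusted p = 0.00163) and *Ap2a2* at 0.49 ± 0.11 (adjusted p = 0.00540). In the cKO inputs 6 of the 18 were higher, beside 8.56% of all genes. In the IP of WT, 7 of the 18 were higher than in the input (7.73% of genes) and 1 was lower, among them *Ap2a1* at 0.75 ± 0.14 (adjusted p = 0.00160) and *Cltc* at 0.68 ± 0.12 (adjusted p = 0.000879). Of the 22 genes of sorting to lysosomes, 0 were higher in the WT IP and 3 lower (16.1% of genes were lower). In the cKO IP 3 of the 22 were higher (11.8% of genes) and 1 lower. Between the WT regions 1 of the 22 was higher in vDG and 1 lower. Of the 15 recycling genes, 3 were higher in the WT IP and 1 lower, and 2 were higher in vDG and 1 lower.

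Genes of mitochondrial transport, the process in which ARMCX3 and ARMCX1 take part, were not called between genotypes: of 12 tested, edgeR and DESeq2 called 0 in each of the 3 contrasts, with 1, 2 and 3 genes at an unadjusted p under 0.05 in the IP, the ventral input and the dorsal input. The kinesin gene *Kif5c*, the most abundant of the list, had −0.14 ± 0.12 (SE) in the IP, −0.27 ± 0.13 in vDG input and 0.15 ± 0.13 in dDG input. In WT, 4 of the 12 were higher in the IP than in the input (7.73% of all genes), led by the fusion genes *Opa1* (0.54 ± 0.11, adjusted p = 0.00347, edgeR) and *Mfn2* (0.46 ± 0.11, adjusted p = 0.00746), and *Kif5a* was the 1 gene higher in vDG than in dDG (0.71 ± 0.13, adjusted p = 0.00111; 9.26% of all genes). Neighbours on the X chromosome were compared as well. The *Bex* and *Tceal* genes, which lie next to the family and are small proteins expressed in neurons, had 11 of 12 members tested. edgeR called 0 of them between genotypes in any of the 3 contrasts, with 0, 0 and 3 at an unadjusted p under 0.05, and DESeq2 called *Bex2* lower in dDG input. There 10 of the 11 were below 0, with a median log2 fold change of −0.24. Of these, 5 lay wholly below the WT range (15.2% of all genes). The median was 0.13 in the IP, with 11 above 0, and 0.06 in vDG input, with 8 above 0. *Bex2* measured 622 CPM in WT vDG IP and 624 in cKO as group means, for 0.01 ± 0.17 (SE) on the log2 scale, and *Tceal8* 110 and 115 CPM, at 0.07 ± 0.14. Of the genes that start between the outermost members, 4 were tested in each genotype contrast and 0 called by edgeR or DESeq2, with 1 at an unadjusted p under 0.05, in dDG input. *Tceal6*, at 45.7 against 52.4 CPM in the IP (0.21 ± 0.17), and *Zmat1*, at 16.5 against 14.6 CPM (−0.16 ± 0.21), were the most abundant. The median log2 fold change of the 4 tested was 0.09 in the IP, −0.46 in vDG input and −0.15 in dDG input. In vDG input 3 of the 4 were below 0, and 1 lay wholly below the WT range (17.6% of all genes). *Zmat1* was higher in vDG than in dDG input of WT (0.66 ± 0.14, adjusted p = 0.00352). The autosomal relative *Armc10* had log2 fold changes of 0.20 ± 0.17 in vDG IP, 0.30 ± 0.14 in vDG input and −0.21 ± 0.13 in dDG input and was not called.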

How the data were processed

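RNA was amplified with the NuGEN Ovation V2 system, made into Illumina TruSeq v2 libraries, which keep no strand, and sequenced. The authors aligned reads to mm10 with STAR 2.4.2a, removed duplicates with SAMtools 0.1.19-444 and counted reads per gene with HTSeq. The deposited files used here hold these raw counts, 1 file per library. The version of the gene models is not given in the sources used here. The authors' 5 tables of normalized counts, fold changes and p-values were not used.

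Counts were tested with the quasi-likelihood test of edgeR 4.0.16 in R 4.3.3 (filterByExpr, TMM scaling), over the libraries of the groups compared and across all genes, with Benjamini-Hochberg adjustment calling genes at an FDR of 0.1 in the genotype contrast of the vDG IP and 0.05 elsewhere. CPM values use TMM factors over all 15 libraries, and positions, exon lengths and coding sequences come from GENCODE M21. DESeq2 1.42.0 size factors and tests, library size alone, no filter on low counts, 1 fit over all groups, a replicate block and leaving out each library were alternatives. The code was tested on simulated data. All members were named. From each list, at most 4 genes were named: those called with the largest absolute log2 fold change and a mean of at least 5 CPM, or, with none called, the 2 most abundant. Members and lists were chosen with earlier results of these data known. P-values measure the spread between pooled libraries, and, without molecular identifiers, reads are not independent molecules. Titles gave the groups. The sample records name cortex as source of the inputs and 3 or 2 mice per pool, and the Supplementary Methods 1 male and 1 female.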

Additional observations from a re-analysis of the deposited data

Results flagged for a closer look

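*Gprasp1* changed sides between the genotypes in the regional comparison: in WT all 3 vDG input libraries lay above all 3 dDG input libraries, and in cKO both vDG input libraries lay below both dDG input libraries. The log2 fold changes of vDG against dDG differed by −0.99 ± 0.19 (SE) between cKO and WT. This difference was not tested, since the family was chosen on a contrast it contains, and edgeR called 0 of 16306 genes in the difference at FDR 0.05, with 2010 at an unadjusted p under 0.05. The count of called genes was 362 with no filter on low counts, 11 with a replicate block and 29 without WT dDG input replicate 3. Without cKO dDG input replicate 2 the difference of *Gprasp1* was −0.73, and without cKO dDG input replicate 1 it was −1.22.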

How the results depend on the processing

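Replicate numbers were not taken as pairing: deviations of same-numbered WT libraries correlated at 0.44, −0.12 and −0.28 between IP and input and at 0.38, −0.08 and 0.24 between regions, and cKO ones at 0.44 and 0.11. Yet inputs were taken from the supernatant before IP, and the vDG libraries without Y-linked counts share a number, so IP and input may be paired. With the block, IP against input gave 0.80 and 0.90 for *Gprasp1* and changed no member's call, and between the WT inputs called members went from 4 to 5, with *Armcx2* higher (adjusted p = 0.0400). The records number the cKO dDG libraries otherwise than their titles, which were used, and blocked dDG and regional cKO values depend on this. With a replicate block, called members went from 2 to 1 in the genotype contrast of the vDG IP (*Gprasp1* −0.80 called, *Gprasp2* −0.74 not), from 0 to 1 in dDG input, and from 1 to 2 between the cKO inputs, where *Gprasp1* was then lower (−0.37). Between the cKO inputs the count was also 2 with DESeq2 size factors and with no filter on low counts. In dDG input it was 1 with DESeq2 and with no filter. In WT, IP against input gave 2 with library size alone (*Armcx4* lower), with no filter and with all 6 groups in 1 fit (*Gprasp2* higher in both). Leaving out 1 library gave 0 to 2 called members in each vDG genotype contrast, 1 to 2 between IP and input in either genotype and 0 to 2 between the cKO inputs. The genotype count in the IP was 0 without WT vDG IP replicate 2, cKO vDG IP replicate 1 or cKO vDG IP replicate 2, and 1 without WT vDG IP replicate 3; in vDG input it was 0 without cKO vDG input replicate 1. Over these fits the log2 fold change of *Gprasp1* was −1.04 to −0.74 in the IP and −1.10 to −0.91 in vDG input, and that of *Gprasp2* −1.06 to −0.70 and −0.96 to −0.62.

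Signs turned in values that were not called. Between genotypes, leaving out libraries, *Gprasp1* ranged from −0.27 to 0.19 and *Gprasp2* from −0.22 to 0.27 in dDG input, with *Armcx2* from −0.093 to 0.031, *Armcx3* from −0.046 to 0.16 and *Armcx6* from −0.075 to 0.23 there. In the IP *Armcx1* ranged from −0.18 to 0.15, *Armcx2* from −0.11 to 0.20, *Armcx3* from −0.036 to 0.13, *Armcx4* from −0.034 to 0.062 and *Armcx6* from −0.49 to 0.67, and in vDG input *Armcx1* from −0.30 to 0.027, *Armcx3* from −0.19 to 0.0023 and *Armcx5* from −0.0024 to 0.19. With library size alone, IP against input gave −0.026 for *Armcx1* and −0.027 for *Armcx3* in WT, and −0.0042 for *Armcx1*, −0.053 for *Armcx2* and −0.084 for *Armcx4* in cKO; the median over all genes then moved to −0.13 in WT and −0.20 in cKO. With all 6 groups in 1 fit *Bhlhb9* had 0.0061 in cKO. Leaving out libraries, IP against input ranged from −0.086 to 0.24 for *Armcx1* and −0.13 to 0.062 for *Armcx5* in WT, and from −0.20 to 0.13 for *Bhlhb9*, −0.028 to 0.27 for *Armcx2*, −0.057 to 0.54 for *Armcx5* and −0.38 to 0.75 for *Armcx6* in cKO. Between regions *Armcx3* ranged from −0.019 to 0.15 in WT. In cKO the regional range was −0.068 to 0.45 for *Gprasp2*, −0.36 to 0.014 for *Bhlhb9*, −0.11 to 0.23 for *Armcx1*, −0.22 to 0.014 for *Armcx3*, −0.22 to 0.080 for *Armcx4* and −0.059 to 0.27 for *Armcx6*. The cause of these shifts was not tested.

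Counts of called genes over the whole table moved more. In the vDG IP 60 genes were called between genotypes, against 115 with library size alone, 353 with DESeq2, 379 with no filter, 470 with all 6 groups in 1 fit and 0 to 184 without 1 library. In vDG input it was 385, against 605, 660 and 140 with DESeq2, no filter and 1 fit and 6 to 638 without 1 library. In dDG input it was 5, against 189, 378 and 0, 137 with the block and 0 to 130 without 1 library. *Armcx5* and *Armcx6*, with 11 to 103 counts per library, are limited by depth.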
